A study of Mus musculus with 4 samples.

Results

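The death receptor pathway and its caspases were followed through 8 genes of the 16230 in the deposited table: Tnfsf10, Fas, Fadd, Casp8, Cflar, Casp9, Xiap and Birc3. They were taken by symbol, as the Fas and TRAIL pathway with caspases and their inhibitors, and all 8 were present and passed the filter on low values. RNA came from cells sorted for CD3 and CD4 from spleens of colitic Rag-/- mice, 8 weeks after naive CD4 T cells were injected. Donor cells were ERαfl/fl (control, 2 libraries) or CD4CreERαfl/fl (labelled as ERα-deficient, 2 libraries). Both kinds of donor thus carried the loxP-flanked alleles of Esr1, the gene of estrogen receptor α, and the second also carried a Cre recombinase driven from Cd4, which is active in T cells. The Rag-/- hosts make no T or B cells and still have myeloid, erythroid and NK cells. The sources used here give neither the age of donors and hosts nor whether the libraries of each group are separate mice. The p-values therefore measure only the spread between these libraries, which may be technical.

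Death receptors are members of the tumor necrosis factor receptor family that carry a cytoplasmic death domain. Fas, bound by Fas ligand, and the TRAIL receptor, bound by TRAIL (the product of Tnfsf10), recruit the adaptor FADD, and FADD gathers procaspase-8 into a complex where it cleaves and activates itself. c-FLIP, the product of Cflar, resembles caspase-8 without its protease activity and competes for the same complex. Caspase-9 starts the separate mitochondrial route, XIAP binds and blocks caspases, and cIAP2, the product of Birc3, is a ubiquitin ligase that steers TNF receptor signalling toward survival. In T cells, Fas is known for removing repeatedly stimulated cells, and macrophages and NK cells use the same machinery.

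The 4 libraries were shallow. An estimated 693000 and 659000 fragments lay behind controls 1 and 2, and 496000 and 553000 behind the libraries labelled CD4CreERαfl/fl 1 and 2. The unit is FPKM, fragments divided by transcript length and by the mapped fragments per library, and a single fragment on 2000 bases of transcript gave 0.722 to 1.008 FPKM. The targeted gene did not check the labels: Esr1 had 0.23 FPKM in control 1, stood at 0 in control 2 and in library 1 labelled CD4CreERαfl/fl, and reached 1.96 in the other. Markers of cells other than T cells were present too. All 23 T cell markers were above 0 in all 4 libraries, and all 23 were lower in both libraries labelled CD4CreERαfl/fl than in both controls, with sums of 2247 and 1781 FPKM in controls against 497 and 465. All 22 macrophage and monocyte markers were higher in both of those libraries, with sums of 115 and 548 FPKM in controls against 3048 and 3569. Of all tested genes, 25.7% were lower and 23.2% higher in both of those libraries than in both controls. 6 of these 22 (Cd14, Adgre1, Mertk, Fcgr1, Msr1 and Marco) were listed at 0 in control 1, and 0 of the 22 in the other 3 libraries. Summed levels of other cell types were 139 and 1331 against 4108 and 4225 FPKM for 14 dendritic cell markers, and 2122 and 4437 against 5890 and 7875 for 14 neutrophil markers. They were 91.2 and 120 against 113 and 235 for 12 NK cell markers, and 78.2 and 105 against 219 and 112 for the 8 B and plasma cell markers in the table. The NK cell sum covers unequal parts: 7 of the 12 were higher and 2 lower without overlap, beside 23.2% and 25.7% of all tested genes. Among the higher ones were Ncr1 (0 and 0 against 8.25 and 19.8 FPKM) and Klra8 (0 and 0 against 14.7 and 9.28). The 2 lower were Nkg7 (49.0 and 47.6 against 5.05 and 24.97) and Eomes (27.1 and 33.3 against 16.5 and 17.5). The dendritic cell sum is also uneven: Cd74 alone had 37.4 and 636 against 2406 and 2251 FPKM, and H2-Ab1 had 9.75 and 253 against 877 and 905. Which cells the RNA of these genes came from was not tested. Of the 14 dendritic cell markers, 10 were higher and 2 lower without overlap, beside 23.2% and 25.7% of all tested genes. The lower ones were Xcr1 (73.35 and 62.79 against 46.67 and 48.48) and Ccr9 (6.99 and 7.96 against 2.75 and 6.48). In the neutrophil sum, S100a9 (915 and 2032 against 2505 and 3662) and S100a8 (607 and 1448 against 2176 and 2525) weigh most. Of the 14 neutrophil markers, 8 were higher without overlap, beside 23.2% of all tested genes, and 6 overlapped. Ncr1, Klra8, Eomes, Xcr1 and Ccr9 were named after their values were seen. No marker of any of these lists was called in limma, where 0.0543% of all tested genes were. An unadjusted p under 0.05 in limma was found for 20 of the T cell markers, all lower, and 22 of the macrophage markers, all higher. Of all tested genes, 6.80% were lower and 9.10% higher at that threshold. In bulk RNA, fewer cells of a type and less RNA per cell cannot be told apart.

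No member differed between the groups beyond the threshold. In limma on log2(FPKM + 1) over 12896 genes, 0 of the 8 passed an adjusted p under 0.05 and 0 passed an unadjusted p under 0.05, where 0.0543% and 15.9% of all tested genes did. With voom weights on recovered fragments 3 of the 8 could be tested and 0 were called, where 3.17% of the genes tested that way were. Adjusted p-values of the members lay between 0.446 and 0.996. Log2 fold changes (labelled CD4CreERαfl/fl minus control) ran from -0.72 for Fas to 0.64 for Xiap with a median of 0.13, beside -0.07 for all tested genes. In 5 of the 8 the difference was smaller than its standard error. Tnfsf10 and Xiap were higher in both libraries labelled CD4CreERαfl/fl than in both controls, as were 23.2% of tested genes. Fas was lower in both, as were 25.7%. A two-sided exact permutation test of a single gene cannot go below 0.33 with 2 libraries a group, so none is given.

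**Figure D1:**
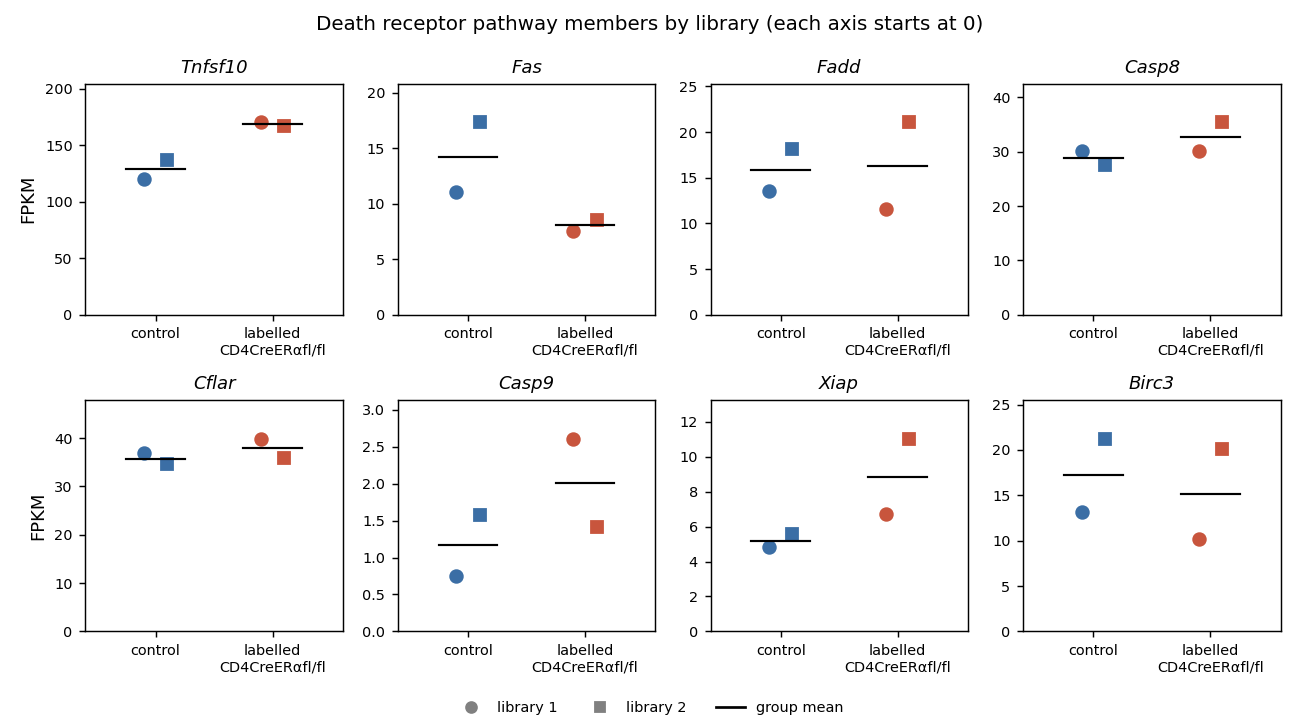
FPKM of the 8 members in each library (circles library 1, squares library 2; bars are group means; n = 2 per group; axes start at 0). Tnfsf10 and Xiap are higher and Fas lower in both libraries labelled CD4CreERαfl/fl than in both controls, and the groups overlap in the other 5 genes.

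Levels differed far more between the genes than between the groups. Tnfsf10 stood highest, between 120 and 170 FPKM, and did not overlap any other member. Cflar and Casp8 came next, and Cflar was the higher of the pair in all 4 libraries, though their ranges of 34.7 to 39.9 and 27.5 to 35.4 FPKM overlap. Birc3, Fadd, Fas and Xiap filled a middle range of 4.81 to 21.2 FPKM, within which neighbours in the order overlap. Casp9 was the lowest in all 4 libraries, at 0.75 to 2.61 FPKM. Among all genes of the table, Tnfsf10 lay above 96.3% to 97.4% of them and Casp9 above only 23.8% to 39.5%.

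Upstream sequences are shown for Tnfsf10, which encodes a ligand, and for Fas, a receptor that binds another ligand. Tnfsf10 was higher and Fas lower without overlap, as were 23.2% and 25.7% of all tested genes, and neither was called. Each is the 250 bases before the start site that the RefSeq promoter table takes for the gene, 5′ to 3′ on the gene's strand, on GRCm38.p6, the assembly that carries the mm10 coordinates; all 8 members matched that table. Capitals mark matches on either strand to any of 5 motifs: the interferon-stimulated response element core GAAANNGAAA, the GAS element TTCNNNGAA bound by STAT proteins, the AP-1 site TGANTCA, the NF-κB core GGGNNTTTCC and the estrogen response element GGTCANNNTGACC. No match overlaps another. The start site of Tnfsf10 is the first base of the gene, while that of Fas, base 34290659, lies 12 bases inside the gene's annotated extent, so the last 12 bases of its window belong to the gene.
Fas, chr19:34290409-34290658, plus strand: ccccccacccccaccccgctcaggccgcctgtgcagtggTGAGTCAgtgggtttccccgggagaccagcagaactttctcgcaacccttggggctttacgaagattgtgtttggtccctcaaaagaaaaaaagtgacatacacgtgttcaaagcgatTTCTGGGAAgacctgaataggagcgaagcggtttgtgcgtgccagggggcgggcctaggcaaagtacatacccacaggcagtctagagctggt
Tnfsf10, chr3:27316827-27317076, plus strand: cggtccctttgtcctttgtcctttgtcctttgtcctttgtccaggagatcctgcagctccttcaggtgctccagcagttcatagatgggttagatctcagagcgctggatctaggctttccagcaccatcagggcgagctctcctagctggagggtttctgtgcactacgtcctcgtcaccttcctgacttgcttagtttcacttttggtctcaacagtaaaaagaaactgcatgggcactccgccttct
The Fas window holds 1 AP-1 match, which begins 211 bases before base 34290659, and 1 GAS match, which begins 93 bases before it. Of all 32851 windows of this length, 6.75% hold the AP-1 letters and 7.02% the GAS letters. The Tnfsf10 window holds none of the 5, nor do the windows of the other 6 members, of which those of Casp8, Cflar, Xiap and Birc3 lie partly or wholly inside the annotated gene. The shares of all windows are 2.98% for the interferon element, 1.41% for the NF-κB core and 0.0639% for the estrogen element. Such a match is a description of letters, and its absence says nothing about a factor.

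Among the ligands and receptors, TRAIL was the most abundant member and Fas the one with the largest difference downward. Tnfsf10 (NCBI gene 22035; chromosome 3, 27317077 to 27339665, plus strand) had 120 and 137 FPKM in controls 1 and 2, against 170 and 167 in the libraries labelled CD4CreERαfl/fl 1 and 2. Both of the latter lie above both controls, and they differ from each other by less than the controls do. Its log2 fold change was 0.39 ± 0.26 (SE), with a 95% interval of -0.25 to 1.02 and an adjusted p of 0.508 in limma. On its 4993-base transcript these values correspond to an estimated 416 to 460 fragments per library, the best supported of the 8, and 0.33% of its 50-base stretches also occur in transcripts of other genes.

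Fas (NCBI gene 14102; chromosome 19, 34290647 to 34327775, plus strand) had 11.1 and 17.3 FPKM in controls, against 7.57 and 8.51 in the libraries labelled CD4CreERαfl/fl. The groups do not overlap, but the controls stand further apart than the lower control does from the other group. The log2 fold change was -0.72 ± 0.40 (SE), with a 95% interval of -1.73 to 0.29 and an adjusted p of 0.446 in limma. Without control 1 it was -1.02, and without control 2 it was -0.42. Its listed transcripts are 532 and 1481 bases long, and even on the longer the values amount to an estimated 5.56 to 16.9 fragments. No 50-base stretch of Fas was found in another gene.

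In the receptor complex itself, the adaptor, the initiator caspase and its inhibitor overlapped between the groups. Casp8 (NCBI gene 12370; chromosome 1, 58795233 to 58847503, plus strand) had 30.2 and 27.5 FPKM in controls, against 30.0 and 35.4 in the libraries labelled CD4CreERαfl/fl. The first of these lies between the controls, so the groups overlap. Cflar (NCBI gene 12633; chromosome 1, 58711311 to 58758884, plus strand), its neighbour on the chromosome, had 36.9 and 34.7 FPKM against 39.9 and 36.0. All 4 of its libraries lie inside a span of 5.24 FPKM. Their log2 fold changes were 0.17 ± 0.31 and 0.08 ± 0.30 (SE), with 95% intervals of -0.60 to 0.95 and -0.66 to 0.82, and adjusted p-values of 0.814 and 0.915 in limma. Leaving out 1 library at a time moved Casp8 between 0.060, without the second library labelled CD4CreERαfl/fl, and 0.29, without the first. It moved Cflar between 0.0087, without the first of them, and 0.15, without the second. Without control 2 they were 0.11 and 0.037, and Cflar was 0.13 without control 1. Cflar per Casp8, both in FPKM, was 1.22 and 1.26 in controls and 1.33 and 1.02 in the others. Of the 50-base stretches of Cflar, 9.7% also occur in other genes, the pseudogene Gm9845 among them, and 4.37% of those of Casp8 occur in Gm20257, so a part of both values, on an estimated 24.3 to 54.0 fragments for Casp8 and 39.8 to 168 for Cflar, depends on how shared fragments were assigned.

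Fadd (NCBI gene 14082; chromosome 7, 144578323 to 144582441, minus strand) had 13.6 and 18.2 FPKM in controls, against 11.6 and 21.1 in the libraries labelled CD4CreERαfl/fl. The spread within each group exceeded the difference between group means, and the highest and the lowest value both fell in the libraries labelled CD4CreERαfl/fl. Its log2 fold change was -0.0060 ± 0.43 (SE), with a 95% interval of -1.08 to 1.06 and an adjusted p of 0.996 in limma. It turned to 0.19 without control 2 and to 0.40 without the first library labelled CD4CreERαfl/fl, so its direction rests on these libraries. The values amount to an estimated 22.4 to 46.7 fragments. Faddos, on the opposite strand, overlaps 239 exon bases of Fadd, and the sources used here do not say whether the counting used strand. Casp8 per Fadd was 2.22 and 1.51 in controls and 2.60 and 1.68 in the others.

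Casp9, which starts the mitochondrial route (NCBI gene 12371; chromosome 4, 141793612 to 141815978, plus strand), was barely covered. It had 0.75 and 1.58 FPKM in controls, against 2.61 and 1.41 in the libraries labelled CD4CreERαfl/fl, so the groups overlap. These values rest on an estimated 0.779 to 5.04 fragments, whichever of its listed transcripts is taken. The log2 fold change was 0.47 ± 0.60 (SE), with a 95% interval of -1.02 to 1.97 and an adjusted p of 0.734 in limma. That interval is the widest of the 8. The log2 fold change was 0.19 and 0.75 without controls 1 and 2, and 0.18 and 0.76 without the first and second library labelled CD4CreERαfl/fl. Its exons overlap Cela2a and Ctrc on the opposite strand over 94 bases.

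Of the inhibitors, Xiap was higher without overlap and Birc3 divided by library instead of group. Xiap (NCBI gene 11798; chromosome X, 42059613 to 42109664, plus strand) had 4.81 and 5.55 FPKM in controls, against 6.70 and 11.03 in the libraries labelled CD4CreERαfl/fl. The second of these stands alone, and the first is closer to the controls than to it. The log2 fold change was 0.64 ± 0.44 (SE), with a 95% interval of -0.46 to 1.74 and an adjusted p of 0.524 in limma, and it was 0.32 without that second library. Without the first library labelled CD4CreERαfl/fl it was 0.96. An estimated 18.0 to 40.7 fragments lay behind each value.

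Birc3 (NCBI gene 11796; chromosome 9, 7847468 to 7873205, minus strand) had 13.1 and 21.2 FPKM in controls, against 10.1 and 20.2 in the libraries labelled CD4CreERαfl/fl. In each group the library numbered 2 was higher, by 0.65 and 0.93 on the log2(FPKM + 1) scale, which exceeds the difference between the groups. The log2 fold change was -0.21 ± 0.48 (SE), with a 95% interval of -1.39 to 0.98 and an adjusted p of 0.858 in limma. It turned to 0.12 without control 2 and to 0.25 without the first library labelled CD4CreERαfl/fl. The same order of the libraries was found in 4 of the 8 members (Birc3, Fadd, Fas and Xiap), but no label ties equal numbers to a shared animal or day. RefSeq lists Birc2 among the synonyms of this gene, and the gene's identifier was used to keep the pair apart. Its values amount to an estimated 13.4 to 37.3 fragments. Of its 50-base stretches, 8.66% occur in other genes, Birc2 and Gm7019 among them.

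Relative to the T cell transcripts of the same library, all 8 members were higher in the libraries labelled CD4CreERαfl/fl. The summed T cell markers were themselves lower there, at 497 and 465 FPKM against 2247 and 1781 in controls. A gene of equal FPKM in all libraries therefore also rises on this measure. The 8 together amounted to 10.3% and 14.8% of the summed T cell markers in controls, and to 56.2% and 64.6% in the others. Tnfsf10 alone was 5.35% and 7.70% of that sum in controls and 34.3% and 35.8% in the others. Casp8 was 1.34% and 1.54% against 6.05% and 7.62%, and Fas was 0.493% and 0.974% against 1.52% and 1.83%. Cd247 and Cd3d, the T cell markers of highest mean over the 4 libraries, had 225 ± 17.1 and 162 ± 22.1 FPKM (SD, n = 2) in controls and 88.7 ± 18.1 and 97.3 ± 37.2 (SD, n = 2) in the others. They moved less than most of their list: their log2 fold changes were -1.35 and -0.78, beside a median of -2.53 over the 23 markers.

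When each library was scaled to equal T cell markers, 8 of the 8 members passed in limma with log2 fold changes of 1.503 to 2.82 and adjusted p-values of 0.00539 to 0.0447. On that scale 69.0% of all tested genes were called higher and 0.310% lower, and the median of all genes moved from -0.07 to 2.01, so most genes of the table passed with them. The median of the members was 2.37. Relative to the median of all genes Tnfsf10, Xiap, Casp8, Cflar, Fadd and Birc3 lay above it, and Fas (1.503) and Casp9 (1.90) lay below it. Fas, Fadd and Birc3, with a log2 fold change under 0 on the deposited scale, had 1.503, 2.28 and 2.07 here. Lyz2 and Hmox1, the macrophage markers of highest mean over the 4 libraries, had 106 ± 78.7 and 24.8 ± 23.8 FPKM (SD, n = 2) in controls and 926 ± 535 and 426 ± 38.3 (SD, n = 2) in the libraries labelled CD4CreERαfl/fl. The part of these cells in the members' levels was not tested.

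**Figure D2:**
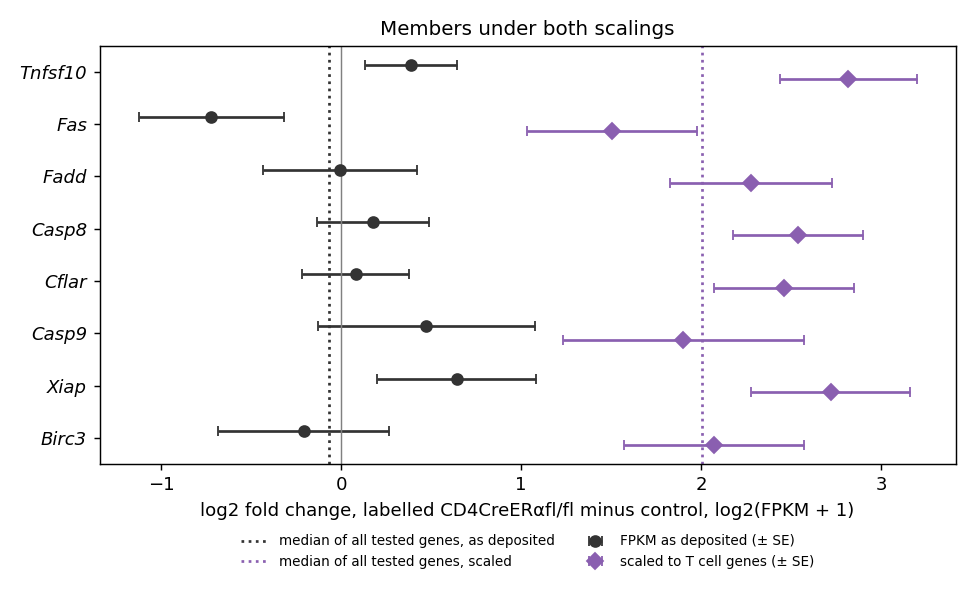
Log2 fold change (labelled CD4CreERαfl/fl minus control, on log2(FPKM + 1)) of each member with FPKM as deposited (circles) and scaled to T cell genes (diamonds); bars are ± SE from limma, and dotted lines mark the median of all tested genes, -0.07 and 2.01. Members lie on both sides of 0 as deposited, while after scaling all lie above 1 and near the median of all genes.

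**Figure D3:**
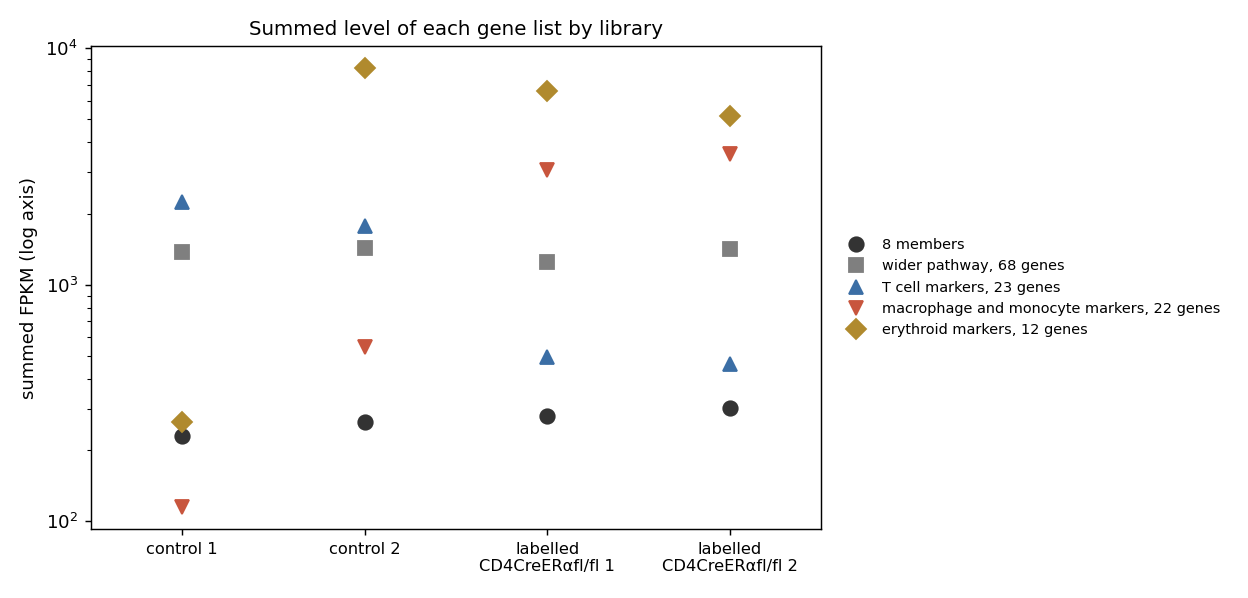
Summed FPKM of each gene list in each library (log axis). The 8 members, whose sum is mostly Tnfsf10, lie between 231 and 300.2 in the 4 libraries, higher in the libraries labelled CD4CreERαfl/fl. T cell markers are lower and macrophage and monocyte markers higher in the libraries labelled CD4CreERαfl/fl, and erythroid markers are low in control 1 alone.

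Summed over the 8 genes, the members had 231 and 263 FPKM in controls, against 279 and 300.2 in the libraries labelled CD4CreERαfl/fl, so both of the latter lie above both controls. Tnfsf10, with 120 and 137 FPKM in controls against 170 and 167, made up most of each sum and weighs most in its direction. Of the 8 genes, 2 were higher and 1 lower without overlap, beside 23.2% and 25.7% of all tested genes, and 5 overlapped. Erythroid markers, at 262 FPKM in control 1 and 5173 to 8261 in the other 3 libraries, did not divide the groups.

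The wider pathway was described from 6 lists by role, with 68 further genes in the table, of which 66 were tested. In limma 0 of the 66 were called, against 0.0543% of all tested genes, and an unadjusted p under 0.05 was found for 10 higher and 5 lower genes (9.10% and 6.80% of all tested genes). 18 were higher and 22 lower without overlap, beside 23.2% and 25.7% of all genes, and the median log2 fold change was -0.15, beside -0.07. With voom weights 1 of 33 tested was called, where 3.17% of all genes tested that way were. Scaled to T cell genes, 48 of 66 were called higher and 0 lower, where 69.0% and 0.310% of all tested genes were, so both counts lie near those of the whole table.

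**Figure D4:**
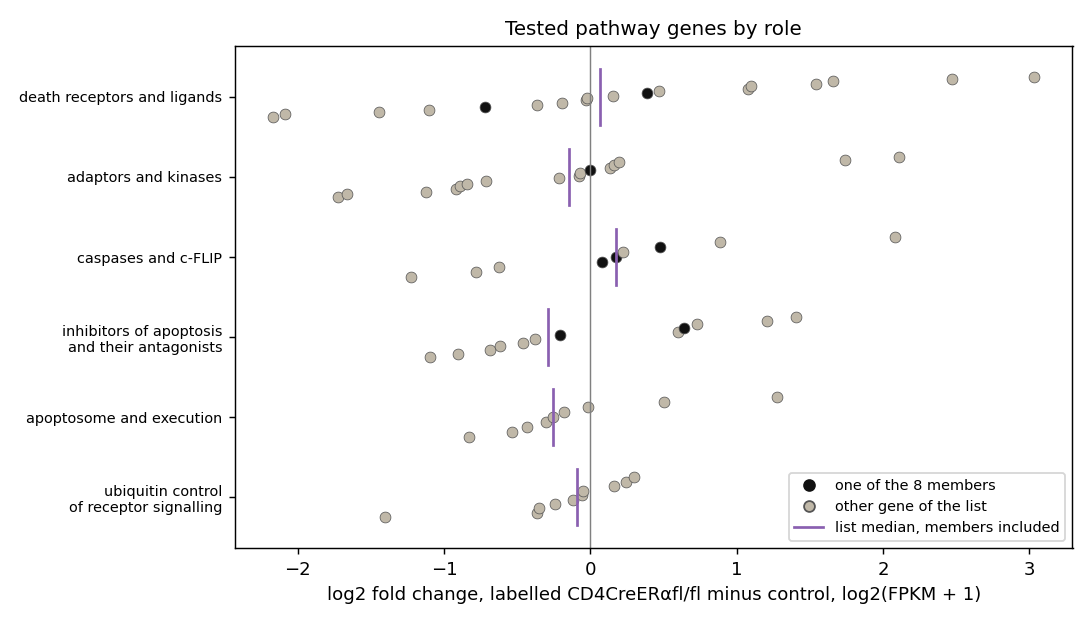
Log2 fold change (labelled CD4CreERαfl/fl minus control, on log2(FPKM + 1)) of every tested pathway gene by role; black points are the 8 members, grey points the other genes, and vertical lines the list medians with members included (-0.29 to 0.17). Receptors and ligands spread widest, from -2.17 to 3.03, and the 8 members lie between -0.72 and 0.64.

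Receptors and ligands showed the widest spread, in both directions. The list held 16 further genes, 7 higher and 4 lower without overlap, beside 23.2% and 25.7% of all tested genes. In limma 4 higher and 3 lower had an unadjusted p under 0.05, beside 9.10% and 6.80% of all tested genes. Tnfrsf1b, the TNF receptor 2 of T cells and myeloid cells, had 10.6 and 8.51 FPKM in controls, against 37.8 and 27.3 in the libraries labelled CD4CreERαfl/fl. Its log2 fold change was 1.66 ± 0.36 (SE), with an adjusted p of 0.156 in limma, and it was the 1 gene called with voom weights (1.74 ± 0.39, SE, adjusted p = 0.0297), while scaled to T cell genes its adjusted p was 0.00539. Tnfrsf21, death receptor 6, was listed at 0 in control 1, had 1.65 FPKM in control 2, and had 9.33 and 16.2 in the others. Tnfrsf25, death receptor 3, went the other way, with 24.9 and 14.7 FPKM in controls, against 3.62 and 3.36 in the others (log2 fold change -2.17 ± 0.43 SE, limma adjusted p = 0.144). It is a receptor known from T cells, and its groups stand well apart on the deposited scale. Scaled to T cell genes, its log2 fold change was -0.0060 ± 0.44 (SE), with an adjusted p of 0.991 in limma.

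The partners of the members differed in level. Tnfrsf10b, which encodes the mouse TRAIL receptor, was the highest of its list at 213 and 173 FPKM in controls, against 258 and 275 in the others (log2 fold change 0.47 ± 0.26 SE, limma adjusted p = 0.437). Tnfsf10 per Tnfrsf10b was 0.566 and 0.792 in controls and 0.662 and 0.607 in the others. 9.74% of the 50-base stretches of Tnfrsf10b occur in transcripts of 600 other genes, so its level is uncertain. Fasl, the ligand of Fas, was named after its values were seen. It had 9.65 and 7.18 FPKM in controls, was listed at 0 in the first library labelled CD4CreERαfl/fl and had 3.81 in the second, with an unadjusted p of 0.0468 and an adjusted p of 0.308 in limma. Fasl was thus lower without overlap, as were Fas and 25.7% of all tested genes. Scaled to T cell genes, the log2 fold change of Fasl was -0.63 ± 1.06 (SE, limma adjusted p = 0.614), and that of Fas was 1.503. Tnf, the cytokine that binds both TNF receptors, had 15.3 and 38.7 FPKM in controls, against 18.8 and 30.5 in the others.

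Further caspases differed among themselves. Casp6, an executioner, had 1.96 and 3.08 FPKM in controls, against 9.55 and 19.6 in the libraries labelled CD4CreERαfl/fl, a log2 fold change of 2.08 ± 0.51 (SE) at an adjusted p of 0.174 in limma. Both tested inflammatory caspases were lower without overlap, as were 25.7% of all tested genes. Casp1, which matures interleukin-1β, had 49.0 and 55.3 FPKM against 20.98 and 42.4. Casp4, which senses lipopolysaccharide in the cytosol, had 22.1 and 30.5 against 9.77 and 11.3, a log2 fold change of -1.23 ± 0.36 (SE) at an adjusted p of 0.215 in limma. Casp2 had 5.22 and 6.32 against 2.80 and 4.02. None of these 4 passed, and 1 of them in each direction had an unadjusted p under 0.05 in limma. Of all tested genes, 9.10% were higher and 6.80% lower at that threshold. Casp12 was listed at 0 in 3 libraries and was not tested.

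**Figure D5:**
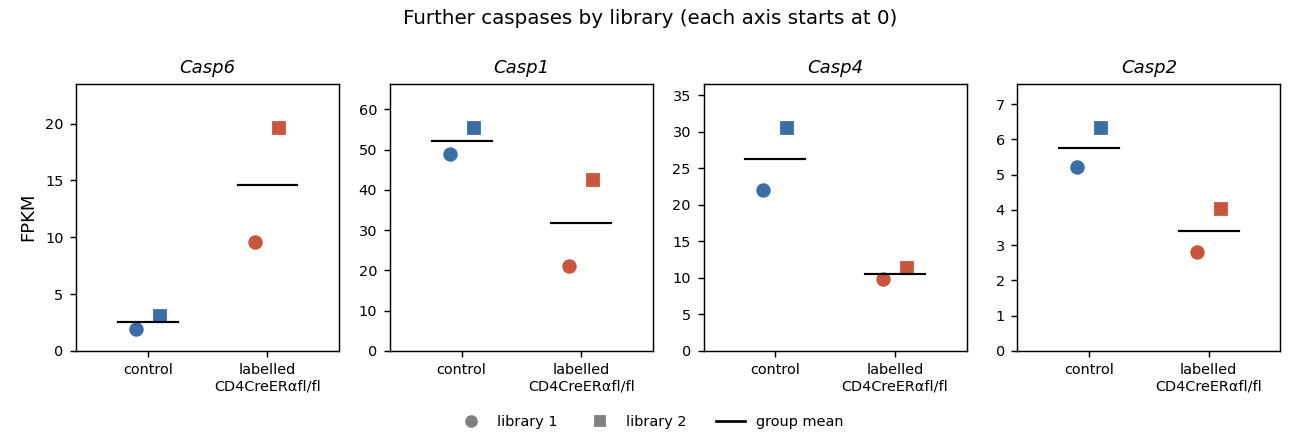
FPKM of 4 further caspases in each library (circles library 1, squares library 2; bars are group means; n = 2 per group; axes start at 0). Casp6 is higher and Casp1, Casp4 and Casp2 are lower in both libraries labelled CD4CreERαfl/fl than in both controls.

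Adaptors and kinases held 15 further genes, 3 higher and 6 lower without overlap, beside 23.2% and 25.7% of all tested genes. None of them was called, where 0.0543% of all tested genes were. Mlkl, which ruptures the membrane in necroptosis, was listed at 0 in control 1 and had 0.75 FPKM in control 2, against 4.98 and 4.47 in the others (limma adjusted p = 0.1996). Dapk1, a death-associated kinase, was listed at 0 in control 1 and had 0.28 FPKM in control 2, against 2.61 and 2.96 in the others. Faf1, which binds Fas, had 7.34 and 6.70 against 0.89 and 2.39. Traf1, the highest of the list, had 30.8 and 27.1 against 25.7 and 29.3, so the groups overlap.

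Among inhibitors of apoptosis and their antagonists, 3 of 10 further tested genes were higher and 2 lower without overlap. The shares over all tested genes were 23.2% and 25.7%. Naip5, a sensor of bacterial flagellin with inhibitor repeats, had 46.7 and 39.8 FPKM in controls, against 74.4 and 69.9 in the libraries labelled CD4CreERαfl/fl (log2 fold change 0.73 ± 0.29 SE, limma adjusted p = 0.308). 36.9% of its 50-base stretches occur in other genes, its paralogs among them, so its value is uncertain. Htra2, a mitochondrial protease that displaces XIAP from caspases, had 7.45 and 13.9 against 26.5 and 31.1 (log2 fold change 1.40 ± 0.42 SE, limma adjusted p = 0.216). It shares 21.5% of its stretches, nearly all with Loxl3. Naip2 had 7.36 and 8.72 FPKM against 10.8 and 14.8. Birc2, the paralog of Birc3, was named after its values were seen, with 14.1 and 16.2 against 6.92 and 12.9. Birc3 per Birc2 was 0.930 and 1.32 in controls and 1.46 and 1.56 in the others, and Birc2 per Xiap was 2.94 and 2.91 against 1.03 and 1.17.

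In the apoptosome and execution list, 2 of 9 tested genes were higher and 5 lower without overlap, beside 23.2% and 25.7% of all tested genes. Gsdmd, whose cleaved form makes pores in pyroptosis, had 8.10 and 10.2 FPKM in controls, against 18.1 and 30.4 in the others (log2 fold change 1.28 ± 0.41 SE, limma adjusted p = 0.242). Endog, a mitochondrial nuclease and the highest of the list, had 160 and 165 against 103 and 140, but shares 32.8% of its stretches with Spout1. Dffa, the inhibitor of the caspase-activated DNase, had 9.03 and 10.3 against 7.32 and 3.32. Of the ubiquitin regulators, 1 of 10 was higher and 2 lower without overlap, again beside 23.2% and 25.7% of all tested genes. Tnfaip3, the NF-κB-induced brake A20, had 97.1 and 44.0 FPKM against 15.2 and 38.0 (log2 fold change -1.40 ± 0.58 SE, limma adjusted p = 0.325). Rnf31 and Rbck1, subunits of the linear ubiquitin ligase, had 6.62 and 8.68, and 24.2 and 22.03 FPKM, in controls. They had 5.18 and 6.21, and 13.3 and 23.9, in the others.

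Profiles over the 4 libraries were compared by the Euclidean distance of centred log2(FPKM + 1) values, among the 66 tested genes of the wider pathway. Birc3 lay closest to Cyld, a deubiquitinase of the same receptor complexes, at a distance of 0.0432, with 67.2 and 105 FPKM in controls, against 50.5 and 99.1 in the others. Cyld was also closest to Fadd, at 0.313. Casp8 lay closest to Pea15a, a small protein with a death effector domain, at 0.0523, with 17.3 and 16.4 FPKM against 17.7 and 20.2. Tnfsf10 lay closest to Parp1, a caspase substrate, at 0.144, with 11.1 and 13.2 against 18.6 and 16.7, and next to Otulin, at 0.168. Xiap lay closest to Naip2, at 0.170, and Cflar to Otulin, at 0.210, with 26.2 and 27.5 FPKM against 32.4 and 31.5. Fas lay closest to Casp2, at 0.329. Casp9 lay closest to Ripk1, at 0.329, with 9.33 and 12.6 FPKM against 16.8 and 9.38. These are descriptions over 4 libraries, picked as nearest among 66 genes without a reference distance. No link between the genes named together was tested.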

How the data were processed

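Values are FPKM, computed by the authors and deposited as 1 table of 16230 genes. Per the submitters' processing notes, HISAT, Bowtie2 and RSEM were used with the build mm10, and no version is listed. Genes with a mean of at least 1 FPKM over the 4 libraries (12896) were fitted on log2(FPKM + 1) in limma 3.58.1 (R 4.3.3), a model of group alone with an empirical Bayes trend, two-sided tests and Benjamini-Hochberg adjustment over all of them; an adjusted p under 0.05 was called. The scale understates changes of low genes. Depth was estimated from 10348 genes with 1 listed transcript of over 800 bases, as the step that brought most values of 0.5 to 4.5 fragments within 0.1 of a whole number (69.4% to 71.5%, against a median of 13.7% to 16.1% over the depths tried). Transcript lengths came from GENCODE M21 through RefSeq accessions, whose ends can differ, so fragment numbers are approximate. A count of 0 allows up to 3 fragments, or 2.16 to 3.02 FPKM on 2000 bases, for counting error only. Gene identifiers matched GRCm38.p6 for 16183 genes. Shared sequence was counted as identical 50-base stretches of protein-coding GENCODE transcripts on either strand.

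The genes and lists were chosen with earlier results of these data known. Named genes of the wider pathway were every tested caspase, from each list the 3 of smallest unadjusted p and the 1 of highest mean, and for each member the 2 of nearest profile, of which the text gives mainly the nearest. Fasl and Birc2 were added after their values were seen. Casp14 and Gsdme were not found under these symbols in the deposited table, so they were not analysed. 2 genes that the rule took are not reported here, though they stay in the fit and in the counts of their list. Alternatives were other scalings (1 that set the mean log2 level of 23 T cell markers equal in all libraries), filters, pseudocounts, variance priors, each library left out, and voom weights on fragments recovered for genes with 1 transcript and a mean of at least 5 fragments. The procedure was tested on simulated data. Equal library numbers were not treated as pairs: over the tested genes, deviations from the group mean of equally numbered libraries had a correlation of -0.002.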

Additional observations from a re-analysis of the deposited data

How the results depend on the processing

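Over the alternatives run, 0 of the members tested were called except under scaling to T cell genes, when 8 were called. Casp9 was not tested at a mean of at least 5 FPKM, and only Fadd, Tnfsf10 and Birc3 were with voom weights. That scaling multiplies every value of a library by the same factor. It gave 8893 higher and 40 lower genes over the whole table and 48 calls in the wider pathway, against 2, 5 and 0 on the deposited scale, and turned Fas, Fadd and Birc3 to 1.503, 2.28 and 2.07. Median-ratio scaling turned Fadd to 0.055, from -0.0060. A pseudocount of 0.1, no filter and no trend each left 0 higher and 0 lower genes, and a mean of at least 5 FPKM left 0 higher and 4 lower. Voom weights gave 146 higher and 54 lower genes of 6306 tested, and 1 call in the wider pathway. The replicate block, which treats equal library numbers as pairs without a basis in the labels, left 0 higher and 0 lower genes and called 0 of the 8. Leaving out each library in turn left 0 to 0 genes in either direction, and moved Fadd between -0.41 and 0.40 and Birc3 between -0.67 and 0.25. With 1 library left in a group, that library is assumed to vary like the others. The cause of these changes was not tested. Depth limits Casp9 and Fas most, at under 6 and under 17 estimated fragments in each library.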
